A study of Mus musculus with 9 samples.

Results

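Prostaglandins are lipid mediators made from arachidonic acid, and the genes described here make them, sense them or destroy them. The 10 genes were taken by symbol: the cyclooxygenases Ptgs1 and Ptgs2, the terminal synthases Hpgds, Ptges and Ptges3, the receptors Ptgdr2, Ptger2, Ptger3 and Ptger4, and the catabolic dehydrogenase Hpgd. Of these, 9 had a probe set naming only that gene, with 11 probe sets in all, among 19938 genes measured. Ptgs1 was not analysed here, because the probe table used names no probe set for it.

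Cells were the low-density fraction of Balb/c mouse bone marrow, pooled, and expanded for 4 days in SCF plus FLT3L (100 ng/mL), the growth factors that expand blood progenitors. They were profiled on Affymetrix mouse gene arrays at 3 times: not yet given IL-5, the cytokine that drives eosinophil formation, and at day 4 and day 10 with it, with 3 arrays in each of the 3 groups and 9 in all. All 3 groups shared the strain, the pooled marrow and the earlier growth factors, and whether SCF and FLT3L stayed in the medium with IL-5 is not stated in the labels. No culture held equally long without IL-5 is analysed here, so effects of IL-5 and of time in culture cannot be told apart. Separate cultures or animals behind the 3 arrays of a group are not named, so p-values measure only how these samples vary, and that spread may be technical.

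Values are log2 signals on a common scale with array medians of 5.67 to 5.75, and the lower quartile of gene means, 4.66, serves as a guide to dim genes. Arrays correlated at 0.991 to 0.996 across genes within a group and at 0.927 to 0.969 between groups. Eosinophil genes were followed with 7 markers (Epx, Prg2, Prg3, Ccr3, Siglecf, Il5ra and Alox15), all of which rose at both days. Their mean log2 signal per array was 7.10 to 7.32 before IL-5, 9.98 to 10.15 at day 4 and 12.28 to 12.31 at day 10. Markers of macrophages, neutrophils and dendritic cells also rose at day 4, so the eosinophil markers do not show that the cultures held eosinophils alone. Day 10 replicate 3 stood apart from the other day 10 arrays in macrophage markers (mean log2 signal 9.98 against 9.25 and 9.01) and megakaryocyte markers (9.32 against 8.64 and 8.59), and results that rest on it are given without it. These are bulk cultures, in which a change in the share of a cell type and a change in RNA per cell cannot be told apart.

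Cyclooxygenases turn arachidonic acid into prostaglandin H2, and terminal synthases turn that short-lived intermediate into prostaglandin D2, E2 or other prostanoids. The products act on G protein-coupled receptors of the cell surface. In allergic inflammation, prostaglandin D2 from mast cells and other haematopoietic cells attracts eosinophils through the receptor encoded by Ptgdr2, known as CRTH2 or DP2. Prostaglandin E2 acts through EP receptors, among them EP2, EP3 and EP4, and the dehydrogenase encoded by Hpgd ends the action of prostaglandins by oxidising them.

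The prostaglandin genes followed different courses. Ptgs2 and Hpgds were highest at day 4, Ptgdr2 was highest at day 10, and Ptger3 was lowest at day 10. Ptges3 was lower at each later time on its brightest probe set, but another probe set differed little between day 4 and day 10 (-0.09). Rises and falls are called here where limma's adjusted p (Benjamini-Hochberg over 19938 genes) was under 0.05 and the change at least 2-fold. By that rule 2 of 9 measured genes rose at day 4 against before IL-5 and the other 7 did not pass, where 3.42% of all genes rose and 2.11% fell. At day 10 against before IL-5, 1 rose and 2 fell, where 4.83% of all genes rose and 9.4% fell. At day 10 against day 4, 1 rose and 2 fell, where 2.44% of all genes rose and 3.98% fell. With adjusted p alone, 5, 6 and 7 of 9 passed in these comparisons, beside 31.5%, 42.3% and 31.9% of all genes, so passing on adjusted p alone was common across the array. Arrays did not overlap for 5, 6 and 7 of the 9 genes, beside 43.6%, 49.7% and 44.2% of all genes.

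**Figure D1:**
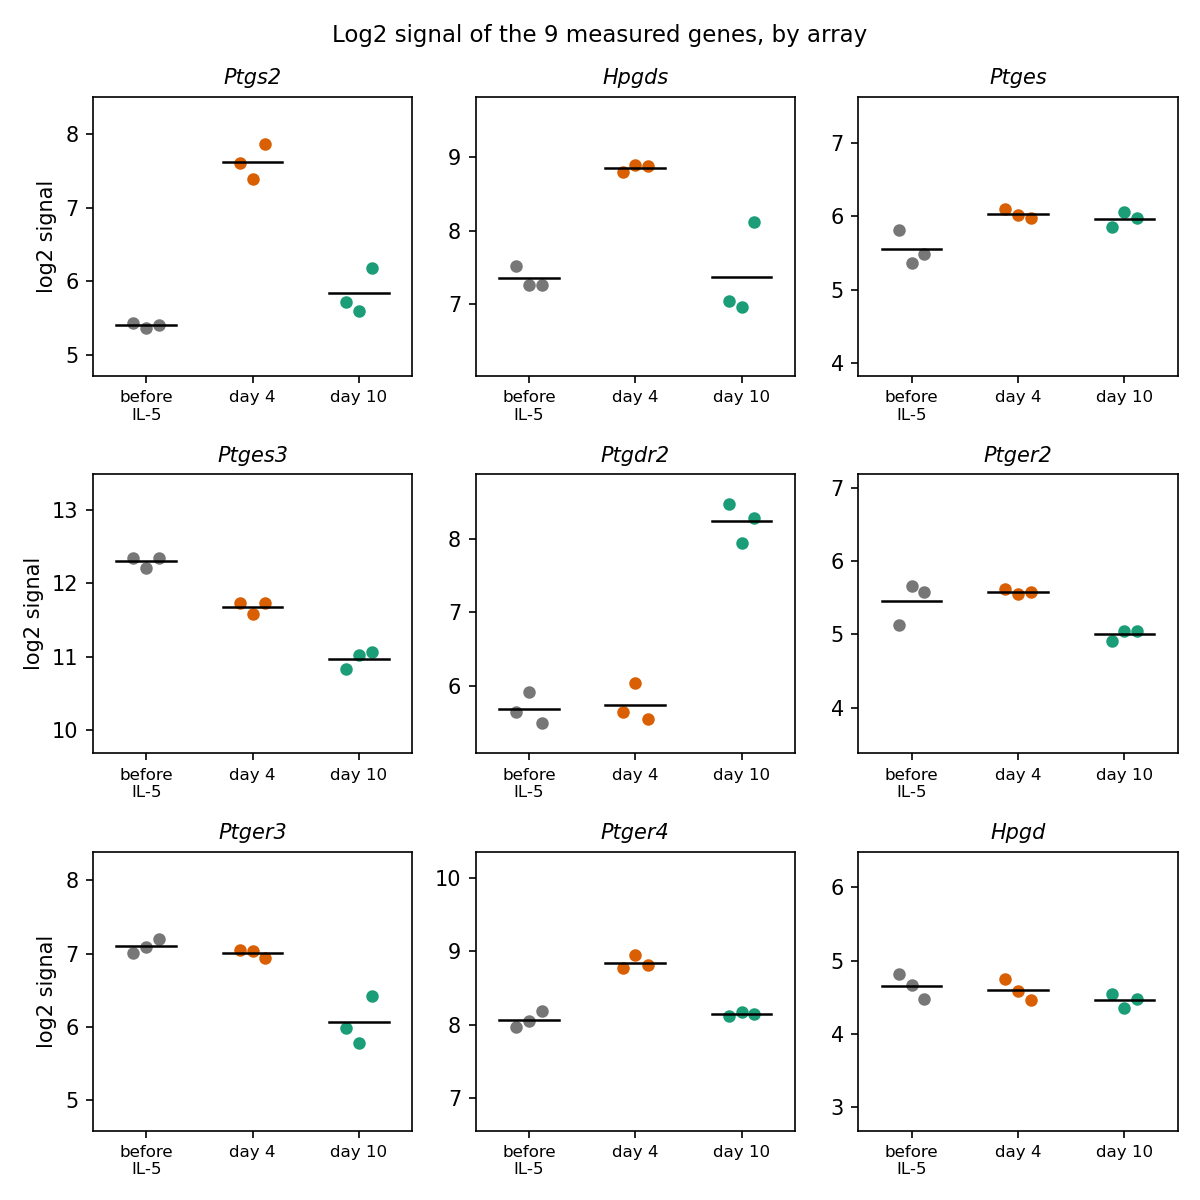
Log2 signal (vertical axis) of each measured prostaglandin gene in every array, by group, with the group mean as a black bar. Each panel spans the same height on the log2 scale. Ptgs2 and Hpgds are highest in the 3 day 4 arrays, and Ptgdr2 is highest in the 3 day 10 arrays, between 7.95 and 8.48.

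Ptgs2 encodes the inducible cyclooxygenase, COX-2. Its log2 signal was 5.43, 5.36 and 5.40 before IL-5, 7.61, 7.39 and 7.87 at day 4, and 5.72, 5.60 and 6.18 at day 10. The day 4 arrays stood above all 6 others, and the day 10 arrays lay a little above those before IL-5 without overlap. The rise to day 4 was 2.23 ± 0.154 (log2 change ± SE, 95% interval 1.89 to 2.56), a 4.68-fold difference with limma's adjusted p of 3.52e-07. It was the 117th highest of 19938 changes in that comparison. From day 4 to day 10 Ptgs2 fell by 1.79 (limma's adjusted p = 1.73e-06), or 3.45-fold. Its remaining difference at day 10 from the cells before IL-5 was 0.44 (95% interval 0.11 to 0.77, limma's adjusted p = 0.0351), short of 2-fold, and it was 0.27 with limma's adjusted p of 0.147 without day 10 replicate 3.

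Hpgds encodes haematopoietic prostaglandin D synthase, the enzyme of mast cells, some macrophages and other blood cells that makes prostaglandin D2. Its log2 signal was 7.52, 7.26 and 7.26 before IL-5, 8.79, 8.89 and 8.88 at day 4, and 7.04, 6.96 and 8.12 at day 10. The day 4 arrays were tightly grouped (SD 0.0514) and above all others. The day 10 arrays were spread (SD 0.649), since replicate 3 lay above every array before IL-5 and the other 2 lay below them. Hpgds rose at day 4 by 1.51 ± 0.235 (log2 change ± SE), 2.84-fold, with limma's adjusted p of 0.000279, and fell from day 4 to day 10 by 1.48 (limma's adjusted p = 0.000304). Between day 10 and the cells before IL-5 the difference was 0.03, with a 95% interval from -0.48 to 0.54. Without day 10 replicate 3 that difference was -0.35 (limma's adjusted p = 0.0288), and the change from day 4 to day 10 was -1.86 in place of -1.48.

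Because Ptgs2 and Hpgds moved together at day 4 and Ptgdr2 moved at day 10, the 250 bases before the annotated start of each are shown for comparison. They come from RefSeq on build GRCm38.p6, in which all 10 genes were matched, and that reference is of C57BL/6J, not of the Balb/c cells. Ptgs2 lies at chr1:150099781-150100030 on the plus strand, Hpgds at chr6:65144731-65144980 on the minus strand and Ptgdr2 at chr19:10936910-10937159 on the plus strand, each read 5′ to 3′ along its gene. Capitals mark the letters TTGCNNAA, read on either strand, which the transcription factor family C/EBP is known to bind.
Ptgs2: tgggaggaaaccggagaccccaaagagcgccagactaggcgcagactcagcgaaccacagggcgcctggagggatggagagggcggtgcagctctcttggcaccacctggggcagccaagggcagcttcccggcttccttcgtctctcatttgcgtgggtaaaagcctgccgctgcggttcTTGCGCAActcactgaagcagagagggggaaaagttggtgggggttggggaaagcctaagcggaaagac
Hpgds: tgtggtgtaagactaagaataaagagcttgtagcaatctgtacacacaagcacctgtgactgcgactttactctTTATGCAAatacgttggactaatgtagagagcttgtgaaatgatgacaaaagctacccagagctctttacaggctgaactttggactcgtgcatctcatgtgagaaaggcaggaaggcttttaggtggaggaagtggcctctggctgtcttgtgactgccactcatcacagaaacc
Ptgdr2: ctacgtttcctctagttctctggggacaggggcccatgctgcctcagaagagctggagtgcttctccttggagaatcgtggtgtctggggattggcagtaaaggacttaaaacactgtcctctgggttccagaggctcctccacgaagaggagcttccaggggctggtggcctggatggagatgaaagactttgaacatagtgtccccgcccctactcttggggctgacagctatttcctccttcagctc

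The C/EBP letters stood 69 to 62 bases before the start of Ptgs2, where they read the same on both strands, and 176 to 169 bases before that of Hpgds, where they read on the opposite strand. They occurred in 2 of the 10 genes' windows, against 9.56% of 32851 promoter windows of the same length. Other letters searched on both strands were AGATAA and TGATAA for GATA factors (9.99% and 7.94% of all windows), TTCNNNGAA for STAT factors (7.02%), TGACG and TGACGTCA for the cyclic AMP element (17.8% and 1.55%, the first lying within the second), GGGNN followed by TTTCC or by TTCCC for NF-kB (1.41% and 1.53%) and TATAAA (12.4%). Among the 10 genes only Ptger2 held any of these, with TGATAA 200 to 195 bases before its start. A match describes letters in this window and is not a measured binding site.

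Of the E2 synthases among the 10 genes, Ptges did not pass in any comparison and Ptges3 fell. Ptges encodes the microsomal prostaglandin E synthase that commonly works with COX-2, and its log2 signal was 5.81, 5.36 and 5.48 before IL-5, 6.10, 6.02 and 5.98 at day 4, and 5.85, 6.06 and 5.98 at day 10. It stood higher than before IL-5 without overlap at both days, by 0.48 (95% interval 0.22 to 0.75, limma's adjusted p = 0.00859) and by 0.41 (limma's adjusted p = 0.0153), both short of 2-fold. The days did not differ beyond their spread (-0.07, 95% interval -0.34 to 0.19). Ptges3 encodes the cytosolic prostaglandin E synthase, a protein also known as the HSP90 co-chaperone p23.

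Ptges3 went down in steps on its brightest probe set, the one used for the calls. Its log2 signal was 12.35, 12.21 and 12.35 before IL-5, 11.73, 11.59 and 11.73 at day 4, and 10.83, 11.02 and 11.07 at day 10, and no 2 groups overlapped. It fell by 1.33 at day 10 against before IL-5 (SE 0.103, limma's adjusted p = 2.21e-07), 2.52-fold, while the steps to day 4 (-0.63) and from day 4 to day 10 (-0.71) each stayed short of 2-fold. The 3 probe sets of Ptges3 disagreed in part. In a limma fit over all probe sets naming 1 gene, a second gave -1.48 at day 10 against before IL-5 (adjusted p = 6.44e-08), and the third, with the lowest signal, gave -0.77 (adjusted p = 0.00127), short of 2-fold, with -0.09 between the days. The gene table used also lists the pseudogene Ptges3-ps, and near-identical copies can share probes, so the source of the signal is uncertain.

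Ptgdr2, the D2 receptor of eosinophils, basophils and type 2 T cells, showed the largest change of the 9 genes. Its log2 signal was 5.65, 5.92 and 5.49 before IL-5, 5.64, 6.04 and 5.55 at day 4, and 8.48, 7.95 and 8.29 at day 10. The first 2 times overlapped and all 3 day 10 arrays lay above them. Ptgdr2 rose by 2.55 ± 0.165 (log2 change ± SE) at day 10 against before IL-5, 5.88-fold, with limma's adjusted p of 5.05e-08. Against day 4 it rose by 2.50 (limma's adjusted p = 1.68e-07), the 54th highest of 19938 changes. At day 4 the difference was 0.06 with a 95% interval from -0.30 to 0.42, whereas all 7 eosinophil markers had risen by then. From day 4 to day 10, when Ptgdr2 rose, 4 of these 7 (Ccr3, Il5ra, Siglecf and Alox15) rose further. The other 3 did not pass, and the median log2 change of the 7 was 2.79.

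Other cells known to carry this receptor were followed by their markers. Of 6 basophil markers 2 fell at day 10 against before IL-5 and 4 did not pass. Their mean log2 signal per array was 7.88 to 8.11 before IL-5, 7.56 to 7.69 at day 4 and 7.04 to 7.54 at day 10. From day 4 to day 10, when Ptgdr2 rose, Fcer1a fell by 1.55 and 5 did not pass. Of these, Cd200r3 (log2 change 0.886) and Gata2 (0.684) were higher at day 10, and Mcpt8 (-0.913), Prss34 (-0.593) and Ms4a2 (-0.265) were lower. Of 6 measured T and NK cell markers, Cd3g, a chain of the T cell receptor complex, rose at day 10 from a range of 4.38 to 4.84 to one of 7.75 to 7.90, Gzma fell, and 4 did not pass. That list's mean was 5.00 to 5.06, 4.31 to 4.51 and 5.17 to 5.37 at the 3 times, and Cd3e, a partner chain of Cd3g, was 5.27 to 5.66 before IL-5 and 5.28 to 5.87 at day 10. The part of these cells in the Ptgdr2 result was not tested.

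Of the E2 receptors, Ptger3 and Ptger2 were lowest at day 10 and Ptger4 was highest at day 4, and of these differences the fall of Ptger3 against before IL-5 passed. Ptger3 encodes EP3, which lowers cyclic AMP, and its log2 signal was 7.01, 7.09 and 7.20 before IL-5, 7.05, 7.03 and 6.94 at day 4, and 5.99, 5.78 and 6.42 at day 10. It fell by 1.03 ± 0.142 (SE) at day 10 against before IL-5, with limma's adjusted p of 4.34e-05, and its day 10 arrays lay below all others. That fall sat at the 2-fold limit: it was -0.98 without replicate 3 of the cells before IL-5, -0.99 when day 10 replicate 1 was left out, -0.89 without day 10 replicate 2 and -0.95 after quantile normalization, with limma's adjusted p of 0.000365 or less in each. Against day 4 the difference was -0.94, and -1.12 without day 10 replicate 3, which passes. Before IL-5 and day 4 did not differ beyond their spread (-0.09, 95% interval -0.40 to 0.21).

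Ptger4 encodes EP4, which raises cyclic AMP, and its log2 signal was 7.97, 8.05 and 8.19 before IL-5, 8.77, 8.95 and 8.82 at day 4, and 8.12, 8.18 and 8.15 at day 10. The day 4 arrays stood above all others, as for Ptgs2 and Hpgds, but by 0.78 against before IL-5 (95% interval 0.56 to 0.99, limma's adjusted p = 5.6e-05) and by 0.69 against day 10, both under 2-fold. Ptger2 encodes EP2, the other EP receptor here that raises cyclic AMP. Arrays gave it a log2 signal of 5.13, 5.66 and 5.58 before IL-5, 5.62, 5.55 and 5.58 at day 4, and 4.91, 5.05 and 5.05 at day 10. The day 10 arrays were the lowest, by 0.58 against day 4 (limma's adjusted p = 0.00388) and by 0.45 against before IL-5 (limma's adjusted p = 0.0125), short of 2-fold in both.

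Hpgd, the dehydrogenase that inactivates prostaglandins, was near the lower quartile of all gene means. Signals were 4.81, 4.67 and 4.48 before IL-5, 4.75, 4.58 and 4.46 at day 4, and 4.55, 4.36 and 4.47 at day 10. The 3 groups overlapped, and the 95% intervals of the differences were -0.31 to 0.19 at day 4 and -0.45 to 0.06 at day 10 against before IL-5. At so low a signal, array summaries compress differences, so these intervals do not bound the change in transcript number.

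**Figure D2:**
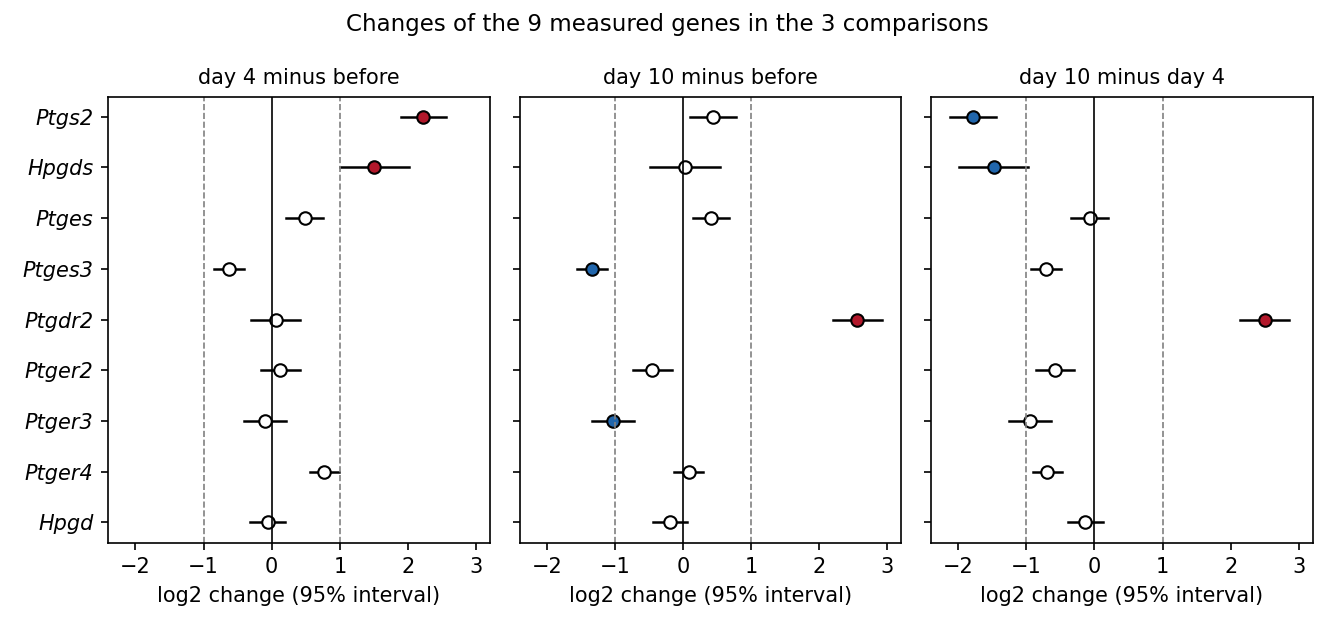
Log2 change (horizontal axis) with its 95% interval for each measured prostaglandin gene in the 3 comparisons. Red points rose, blue points fell and open points did not pass, and dashed lines mark a 2-fold change. Ptgs2 and Hpgds rose to day 4 and fell from day 4 to day 10, while Ptgdr2 rose by 2.55 and 2.50 in the comparisons that end at day 10.

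Markers of macrophages, dendritic cells and neutrophils, which are known to express COX-2 when activated, also moved at day 4. All 8 macrophage markers rose then, and their mean log2 signal per array was 6.91 to 7.10 before IL-5, 9.81 to 9.93 at day 4 and 9.01 to 9.98 at day 10. Mrc1, the mannose receptor, was 8.07, 7.43 and 9.86 and C1qc, a chain of complement C1q, was 8.72, 8.32 and 9.43 in day 10 replicates 1, 2 and 3. Replicate 3 was the highest of the 3 day 10 arrays in Mrc1 and C1qc, as it was for Hpgds and Ptgs2. It was not the highest in the macrophage marker Adgre1 (12.2, 12.07 and 12.06). At day 10 against before IL-5, 6 of the 8 had risen. From day 4 to day 10 the median log2 change of the list was -0.54 against 0.02 over all genes: Fcgr1, an Fc receptor, fell by 1.49, Adgre1, the F4/80 antigen, also carried by eosinophils, rose by 1.32, and 6 did not pass, among them Cd68 at -1.0 and C1qb at -0.96. Without day 10 replicate 3, 3 macrophage markers fell and 1 rose between the days. Of 8 dendritic cell markers, 4 rose at day 4, among them Ccr7, a homing receptor, and 6 fell from day 4 to day 10. Their mean was 7.05 to 7.14 before IL-5, 8.56 to 8.66 at day 4 and 6.07 at each day 10 array. At day 10 against before IL-5, Flt3 fell by 3.55 and Siglech by 1.15, and 6 did not pass. Flt3 is also the receptor for FLT3L, in which the cells were expanded, and is not a marker of dendritic cells alone. Of 8 neutrophil markers, 7 rose at day 4, with a median of 1.61, and from day 4 to day 10 5 fell, 1 rose and 2 did not pass, with a median of -1.49. Those that fell were the granule genes Ltf, Camp and Ngp and the calcium-binding S100a8 and S100a9, each of which had risen at day 4, and the one that rose again was Ly6g, by 1.14. The mean log2 signal of the list was 9.12 to 9.42 before IL-5, 10.9 to 11 at day 4 and 9.91 to 10.34 at day 10, so like Ptgs2 and Hpgds it was highest in the day 4 arrays. The part of these cells in the courses of Ptgs2 and Hpgds was not tested.

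Mast cells are a known site of Hpgds and Ptger3 expression, so their markers are given too. At day 4, when Hpgds rose, the 7 mast cell markers did not pass, with a median log2 change of 0.14 against -0.11 over all genes, and 1 of them rose without replicate 2 of the cells before IL-5. The tryptase Tpsb2 and the chymase Mcpt4 were higher at day 4 without overlap, by 0.93 (limma's adjusted p = 6.48e-05) and 0.84 (limma's adjusted p = 7.49e-05), and lower again at day 10 than at day 4, with log2 changes of -0.97 and -0.94, all short of 2-fold. At day 10 against before IL-5, Kit, Cpa3 and Cma1 fell, as Ptger3 did, and 4 did not pass. Kit is also the receptor for SCF, in which the cells were expanded, and is not a marker of mast cells alone. The mean log2 signal of the list was 6.39 to 6.48, 6.60 to 6.69 and 5.44 to 5.51 at the 3 times, and Tpsab1 and Mrgprb1 were near or below the dim-gene guide throughout, at 3.85 to 4.49 and 3.58 to 4.28. The part of mast cells in the Hpgds and Ptger3 results was not tested.

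**Figure D3:**
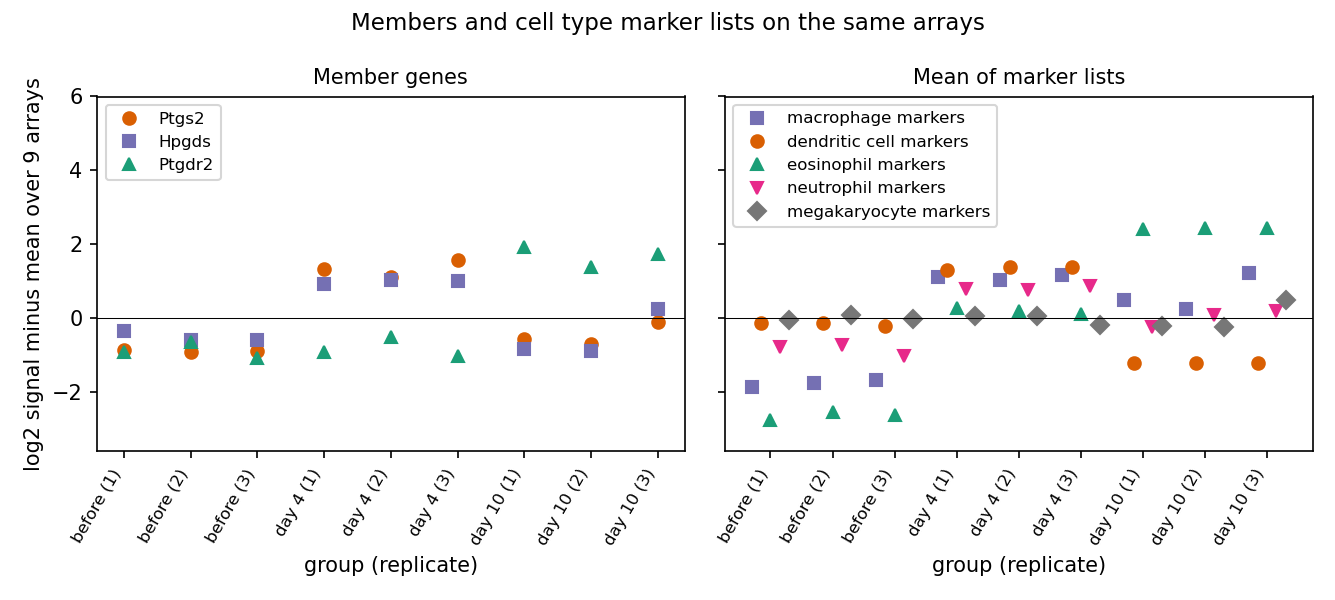
Log2 signal minus its mean over 9 arrays (vertical axis) for each array (horizontal axis), for Ptgs2, Hpgds and Ptgdr2 on the left and for the means of 5 marker lists on the right. The neutrophil and dendritic cell lists are highest in the day 4 arrays, as are Ptgs2 and Hpgds. Hpgds, Ptgs2 and the macrophage and megakaryocyte lists are higher in day 10 replicate 3 than in the other day 10 arrays, and Ptgdr2 is highest in the day 10 arrays.

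Upstream of the cyclooxygenases, phospholipases and lipases free arachidonic acid. Of 11 phospholipases, lipases and related genes measured, not all of which are known to free arachidonic acid, Pla2g7 rose at day 4. At day 10 against before IL-5, Pla2g7, Mgll and Pla2g4a rose and the other 8 did not pass. Pla2g4a encodes cytosolic phospholipase A2, the main arachidonate-releasing enzyme, and its log2 signal was 8.87, 9.0 and 8.88 before IL-5, 8.26, 8.34 and 8.20 at day 4, and 9.97, 9.89 and 9.97 at day 10. It was lowest at day 4, when Ptgs2 was highest, with a log2 change of -0.65 against before IL-5 (limma's adjusted p = 0.000149, short of 2-fold) and a rise of 1.68 from day 4 to day 10 (limma's adjusted p = 3.62e-08). Mgll encodes monoacylglycerol lipase, which releases arachidonate from an endocannabinoid, and it rose by 3.66 at day 10. Pla2g7, the platelet-activating factor hydrolase, rose by 2.06 and 3.67 at the 2 days. Plaat3, a phospholipase of fat cells, fell from day 4 to day 10 by 1.09, and Pla2g15, a lysosomal phospholipase, stood 0.86 higher at day 10 without reaching 2-fold.

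Of the 6 other prostanoid synthases measured, Tbxas1 rose at day 10 and 5 did not pass. Tbxas1 encodes thromboxane synthase, which uses the same cyclooxygenase product as Hpgds. In log2 signal it was at 8.09, 8.13 and 8.17 before IL-5, 9.06, 9.07 and 9.02 at day 4, and 10.13, 10.07 and 10.09 at day 10. It thus went up in steps without overlap, by 0.92 to day 4 and by 1.97 to day 10 (SE 0.088, limma's adjusted p = 1.97e-09), whereas Ptgs2 fell from day 4 to day 10. The largest difference among those that did not pass was in Prxl2b, a prostaglandin F synthase, 0.90 higher at day 4, and 1.02 without replicate 2 before IL-5, which passes. Ptges2, a further E2 synthase, had log2 changes at day 10 of -0.81 against before IL-5 (limma's adjusted p = 8.49e-05) and -0.55 against day 4. Both were short of 2-fold.

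Of 6 other receptors, 5 on the cell surface did not pass in any comparison, with Ptgir, the prostacyclin receptor, 0.52 higher at day 4 as the largest of these differences. The remaining receptor, Pparg, a nuclear receptor that binds fatty acids and cyclopentenone prostaglandins, was 5.83, 5.71 and 5.87 before IL-5, 7.14, 7.30 and 7.59 at day 4, and 5.68, 5.67 and 5.87 at day 10. It rose by 1.54 at day 4 (limma's adjusted p = 1.17e-06) and fell by 1.60 from day 4 to day 10, as Ptgs2 and Hpgds did. Among 7 genes of transport and breakdown only Ptgr1, which reduces the oxidised prostaglandins that Hpgd makes, passed. It fell by 1.06 at day 10 against before IL-5 and by 1.05 against day 4. After quantile normalization these were -0.91 and -0.93, and without day 10 replicate 2 the change from day 4 was -0.99, all short of 2-fold. Cbr3, a carbonyl reductase, was 0.79 lower at day 10 than at day 4 (limma's adjusted p = 0.0235) and did not pass, but it fell by 1.00 without day 10 replicate 3 and by 1.00 without day 4 replicate 3 (limma's adjusted p = 0.00741 and 0.00994). Abcc4, an exporter of prostaglandins, was 0.87 lower at day 10 than before IL-5, short of 2-fold.

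Of 8 genes linked to cyclic AMP, the second messenger of EP2 and EP4, 2 rose at day 4. These were the orphan nuclear receptors Nr4a3, by 2.57, and Nr4a1, by 1.40, and both fell from day 4 to day 10, by 2.78 and 1.56. Many other stimuli induce these genes, so they are no readout of the receptors alone. Fosl2, an AP-1 factor, rose by 1.69 at day 10 instead, and Pde4b, a cyclic AMP phosphodiesterase, stood 0.77 and 0.78 higher at the 2 days without reaching 2-fold. Crem differed little at day 4 (0.05) and had a log2 change of -0.54 at day 10 against before IL-5 (limma's adjusted p = 0.00439), short of 2-fold. At day 4 the log2 changes were 0.64 for Nr4a2, -0.14 for Pde4d and 0.41 for Adcy7, an enzyme that makes cyclic AMP.

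**Figure D4:**
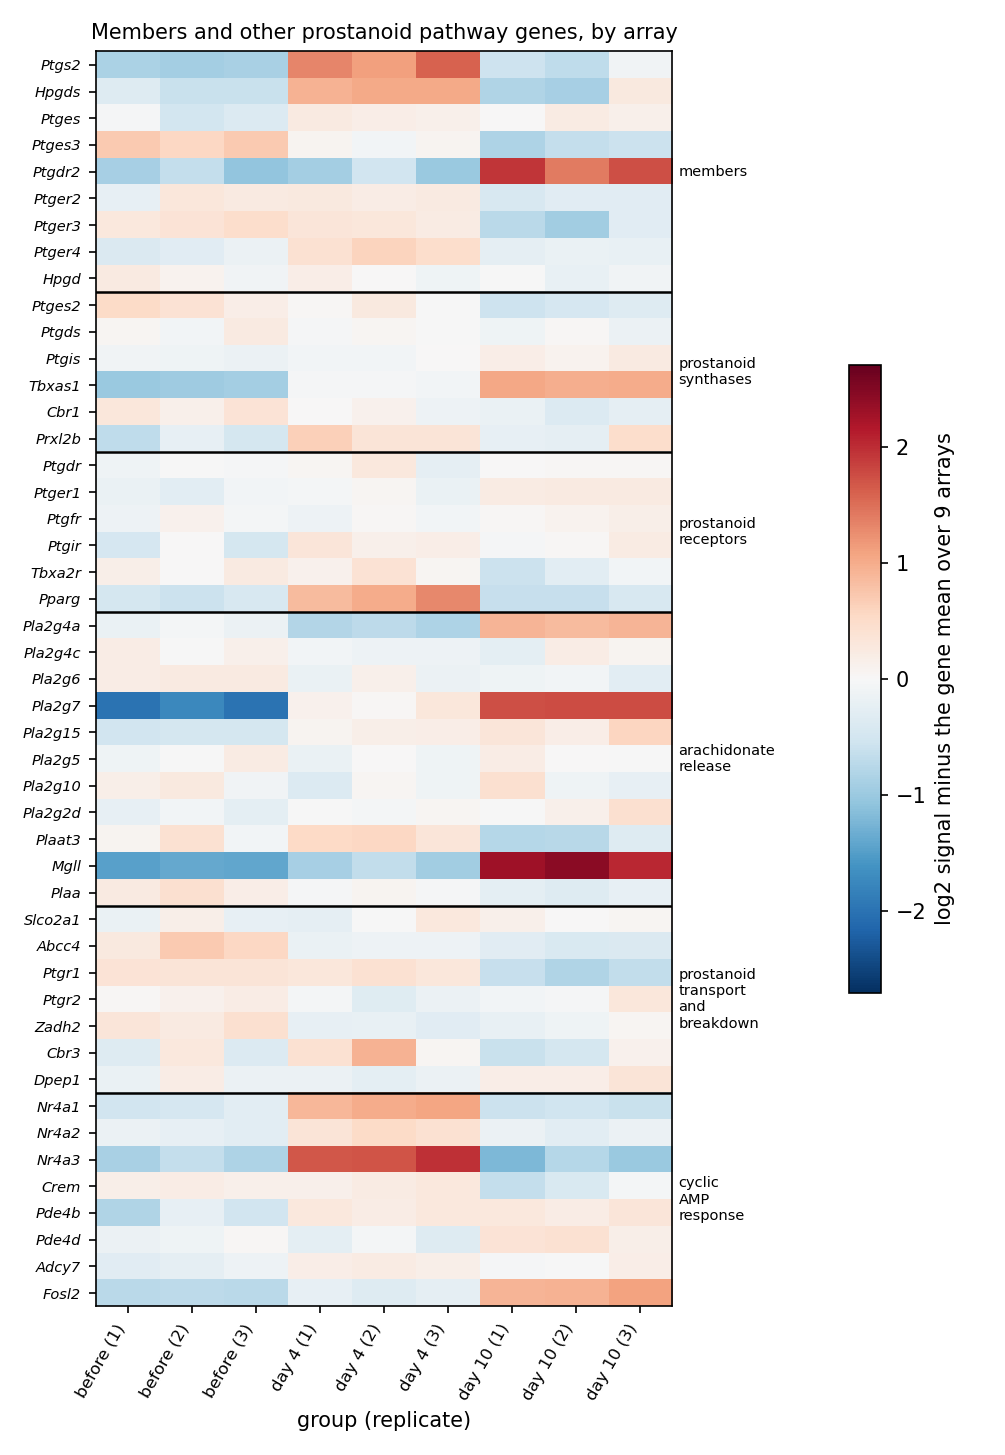
Log2 signal of each gene minus its mean over 9 arrays (colour scale, red higher and blue lower), by array, for the 9 measured prostaglandin genes and the other genes of the pathway lists. Ptgs2, Hpgds, Pparg, Nr4a1 and Nr4a3 are reddest at day 4, and Ptgdr2, Tbxas1, Pla2g4a, Pla2g7 and Mgll at day 10.

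Genes whose course over the 9 arrays was most like that of each changed gene were found by the root mean square difference of mean-centred log2 signals among all 19938 genes, as a description. For Ptgs2 they were Zfp36l1, an mRNA decay factor (0.136), Clec4a3, a myeloid lectin (0.150), and Slc37a2, a sugar phosphate transporter (0.161). For Hpgds they were Mpeg1, the pore-forming protein of macrophages (0.143), Hpse, heparanase (0.149), and Cfb, complement factor B (0.164). The genes nearest to Ptgdr2 were Pla2g3, a secreted phospholipase A2 (0.163), Rxra, a retinoid receptor (0.173), and Mboat1, a lysophospholipid acyltransferase (0.186). The nearest to Ptges3 were Gcfc2 (0.0546), Ncapg, a condensin subunit (0.0689), and Nudc (0.0694), and to Ptger3 Fundc1 (0.0571), Zmpste24 (0.0912) and Ift172 (0.0971).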

How the data were processed

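Total RNA of 9 samples was measured on Affymetrix mouse gene arrays. Each deposited value is a log2 signal of a probe set, made with Affymetrix Expression Console 1.1.2637.26569 per the submitters' processing notes, and the sample descriptions, per the labels, name its default RMA summary. Not given in the sources used here are its settings, genome build and annotation release. RMA compresses changes of dim genes. No detection calls were used, and precision is limited by the number of arrays.

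Of 35557 probe sets, 21789 named 1 gene, 1621 several and 12147 none. The brightest probe set was kept for each of 19938 genes. Titles gave each array's group and number, whereas the sample descriptions number the last array before IL-5 and the day 10 arrays otherwise. The test was limma 3.58.1 under R 4.3.3 (lmFit, eBayes, 3 group means on 9 arrays, 6 residual and 6.47 prior degrees of freedom, two-sided, Benjamini-Hochberg over 19938 genes). Calls needed an adjusted p under 0.05 and a 2-fold change. Run on simulated data of 19938 genes, it recovered 97% of planted log2 changes of 1.5 at day 4 and at day 10 against before IL-5. Changes of 3 between the days were recovered at 100%. No change smaller than 1.5 was planted, so calls near the 2-fold limit were not covered.

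Named genes were the 10 symbols, the pathway genes called in any comparison, the largest difference that did not pass in each pathway list, up to 4 genes of a marker list and the 3 nearest genes of each changed gene. Cd3e, Tpsab1, Mrgprb1, Tpsb2, Mcpt4, C1qb, Cd68, Cbr3 and the neutrophil markers were named after their values were seen. So were Ptges2, Crem, Nr4a2, Adcy7, Pde4d, Flt3, Siglech and the basophil markers. The genes and lists were chosen with earlier results of these data known. Alternatives were leaving out each array, the replicate number as a block, quantile normalization, subtraction of array medians, leaving out dim genes, the mean of probe sets, fits of 2 groups, a variance trend and a 1.5-fold threshold. The other probe sets of Ptges3 were an alternative chosen after seeing the data.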

Additional observations from a re-analysis of the deposited data

How the results depend on the processing

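Of 462 values of single prostaglandin genes under 19 alternatives, 451 kept their side of the test, 5 lost a call and 6 gained one, and a called gene never changed sign. The losses were those of Ptger3 at day 10 against before IL-5 in 4 alternatives and of Ptges3 on its probe set of lowest signal. Hpgd gave no value with dim genes left out, since it was then removed. In many of the 462 values the log2 change was fixed by construction, so their number is no measure of robustness. It could not move with the block, fits of 2 groups, a variance trend or dim genes left out. The same held for leaving out an array of the group not compared, and for the mean of probe sets in genes with 1 probe set. A 1.5-fold threshold, which by construction admits smaller changes, gave 4 prostaglandin genes and 3133 genes in all at day 4, 5400 genes at day 10 against before IL-5, and 6 prostaglandin genes and 3208 genes between the days, against 1102, 2839 and 1281 genes at 2-fold. Leaving out each array gave 2, 2 to 3 and 3 to 4 prostaglandin genes in the 3 comparisons. The replicate numbers of the titles were used as a block. The block left 2, 3 and 3 prostaglandin genes called, as without it, and changed the call of no other pathway gene. Over all genes it gave 1103, 2842 and 1282 calls, against 1102, 2839 and 1281 without it. Nothing says that the title numbers pair the samples. The deviations of same-numbered arrays correlated at -0.119 to 0.077, with 0 of 9 pairs over 0.1. Arrays of different numbers reached -0.163 to 0.184. Because the sample descriptions number some arrays otherwise, the block tests the titles' numbers alone. Limits include the 3 arrays a group and the signal of Hpgd, close to the dim-gene guide.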
